A study of Homo sapiens with 4 samples.

Results

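The genes described here are noncoding RNA genes, measured in the T cell leukemia line Jurkat: 27 with a symbol made of SNHG (small nucleolar RNA host gene) and a number, and 14 further long noncoding RNA genes, GAS5, ZFAS1, DANCR, EPB41L4A-AS1, MIR17HG, MALAT1, NEAT1, TUG1, OIP5-AS1, NORAD, CYTOR, MIAT, FTX and JPX. They were taken by symbol, 41 of 64252 gene IDs in the deposited count table. Membership goes by symbol, but the group itself was chosen by measured values, the changes of such genes between the same 4 libraries. Its changes are therefore given as a description, and its share of called genes supports nothing by itself. RNA-seq counts were compared between Jurkat cells with a scrambled short hairpin RNA (sh-Scb, 2 libraries) and Jurkat cells with a hairpin against the transcription factor SOX4 (sh-SOX4, 2 libraries). Both groups are the same cell line and both were transfected with a hairpin. The sources used here do not give the hairpin sequences or the time after transfection. The libraries summed to between 29093287 and 36636219 counts. SOX4 itself was 271 and 277 CPM (counts scaled to library size and TMM factor) in the sh-Scb libraries and 191 and 199 CPM in the sh-SOX4 libraries, a log2 fold change of -0.49 (SE 0.044). All 10 T cell markers were present, and 70% of them were called at an adjusted p under 0.05, beside 44.1% of all tested IDs. Of the markers 6 rose, including CD3G by 1.02, CD28 by 0.63 and CD3E by 0.31 on the log2 scale, and CD247 fell by 0.34. Without sh-SOX4 replicate 2, 2 of them fell. LYZ, COL1A2 and HBB had 0 counts in every library, and the highest mean among the 4 tested markers of other cells was 1.09 CPM, for HBA1 in sh-Scb.

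Many small nucleolar RNAs (snoRNAs), though not all, guide the chemical modification of ribosomal RNA. Those that act as guides direct 2′-O-methylation if they are box C/D snoRNAs and pseudouridylation if they are H/ACA snoRNAs. Relatives that gather in Cajal bodies act on spliceosomal RNAs. In vertebrates most lie in introns and are cut out of the spliced intron of a host transcript, which may encode a protein or, as in the SNHG genes, may not. The spliced transcripts of several noncoding hosts, GAS5 among them, begin with a pyrimidine tract like that of ribosomal protein mRNAs and are degraded by nonsense-mediated decay. The other genes of the group act as transcripts themselves or carry microRNAs. MALAT1 and NEAT1 stay in the nucleus, in speckles and paraspeckles, NORAD acts in the cytoplasm, and MIR17HG is the primary transcript of the miR-17-92 cluster.

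The label of the group was checked against annotated positions. Inside the boundaries of 29 of the 41 genes, GENCODE release 29 (same strand) or RefSeq (GRCh38.p14) places at least 1 snoRNA or small Cajal body RNA gene, and 25 of the 27 SNHG genes are among the 29. The exceptions are SNHG27 and SNHG28. DANCR, EPB41L4A-AS1, GAS5 and ZFAS1 are hosts without the SNHG name. Of 148 snoRNA symbols inside these genes, 84 lie in SNHG14, most of them SNORD115 and SNORD116 copies. GAS5 holds 10 box C/D genes and 1 H/ACA gene, SNHG1 holds 8 box C/D genes and SNHG17 holds 5 H/ACA genes.

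The RNA products carried by 5 of the hosts that rose are shown so that the small RNAs behind the host names can be seen. The snoRNAs are given as DNA letters of the GENCODE release 29 transcripts on GRCh38, 5′ to 3′. Capitals mark the last ACA of the H/ACA snoRNAs, and the TGATGA of box C and the last CTGA, box D, in SNORD1B. SNORA26 lies in DANCR (chr4:52713249-52713370, plus strand), SNORA73B in SNHG3 (chr1:28508559-28508762, plus strand), SNORA71A in SNHG17 (chr20:38427309-38427442, minus strand) and SNORD1B in SNHG16 (chr17:76561109-76561192, plus strand). The mature microRNAs of MIR17HG are from RefSeq (GRCh38.p14), all on the plus strand of chromosome 13, with the seed, bases 2 to 8, in capitals.
SNORA26: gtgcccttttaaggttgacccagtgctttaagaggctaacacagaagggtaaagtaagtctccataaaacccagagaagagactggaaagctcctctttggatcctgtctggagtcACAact
SNORA73B: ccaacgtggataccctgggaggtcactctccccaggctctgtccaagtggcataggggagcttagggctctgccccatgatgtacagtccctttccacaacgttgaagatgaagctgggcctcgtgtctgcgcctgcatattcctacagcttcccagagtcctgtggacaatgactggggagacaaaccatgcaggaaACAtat
SNORA71A: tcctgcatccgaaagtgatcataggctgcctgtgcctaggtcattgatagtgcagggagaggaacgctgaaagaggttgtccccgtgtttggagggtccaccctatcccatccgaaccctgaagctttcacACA
SNORD1B: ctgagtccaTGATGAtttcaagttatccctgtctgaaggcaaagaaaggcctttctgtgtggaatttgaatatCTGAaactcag
miR-17-5p: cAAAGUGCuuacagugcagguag
miR-20a-5p: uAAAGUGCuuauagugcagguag
miR-18a-5p: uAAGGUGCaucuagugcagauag
miR-19a-3p: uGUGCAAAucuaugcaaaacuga
miR-19b-3p: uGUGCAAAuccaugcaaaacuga
miR-92a-3p: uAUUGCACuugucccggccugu
The microRNAs fall into 4 seeds: miR-17-5p and miR-20a-5p share AAAGUGC, miR-19a-3p and miR-19b-3p share GUGCAAA, miR-18a-5p has AAGGUGC and miR-92a-3p has AUUGCAC.

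Most noncoding snoRNA hosts were higher in sh-SOX4, led by DANCR at 3.32-fold and SNHG3 at 2.97-fold, while the long noncoding RNAs MALAT1, OIP5-AS1, MIAT and NEAT1 were lower. Of the 41 genes, 39 passed the filter on low counts, and 29 of them were called at an adjusted p under 0.05 (edgeR, quasi-likelihood, Benjamini-Hochberg over all 19897 tested IDs): 21 higher and 8 lower. This is 74.4% of the 39, beside 44.1% of all tested IDs. Higher calls made up 23.2% and lower calls 20.9% of all tested IDs. Of the calls over all IDs, 52.5% were higher, or 40.8% with scaling to library totals alone. The number of these genes called lower was 5 in place of 8 without sh-Scb replicate 1, and likewise without either sh-SOX4 library. The median log2 fold change of the 39 genes was 0.52, and that of all tested IDs was -0.01. The values of the 2 groups did not overlap in 37 of the 39 genes, beside 72.9% of all tested IDs. With 2 libraries a group and nothing in the labels on separate cultures, the tests measure the spread between these libraries only. In bulk RNA, fewer cells of a kind and less RNA per cell cannot be told apart.

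**Figure D1:**
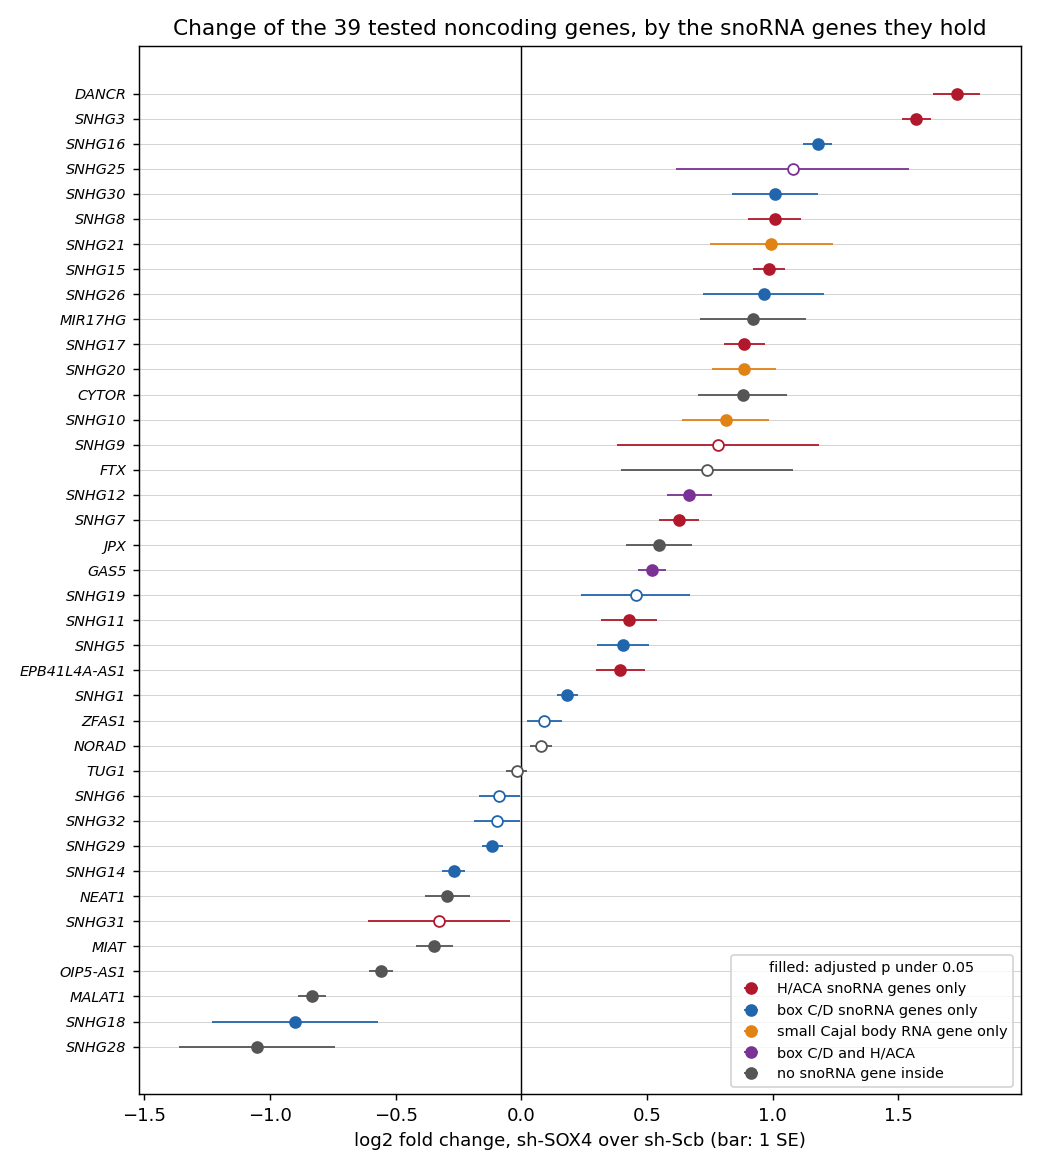
Log2 fold change of each of the 39 tested noncoding genes (sh-SOX4 over sh-Scb, horizontal axis; bars are 1 SE), coloured by the kinds of snoRNA gene annotated inside it. Filled points passed an adjusted p of 0.05; DANCR stands highest at 1.73 and SNHG28 lowest at -1.05, and most filled points above 0 are hosts.

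Among the hosts of H/ACA snoRNAs only, 8 of 10 tested genes rose and 0 fell, with a median log2 fold change of 0.84. Called genes made up 80% of these hosts, beside 44.1% of all tested IDs. The other 2, SNHG9 and SNHG31, had low counts. DANCR (ENSG00000226950, chromosome 4, 52712404 to 52720351), the host of SNORA26, was 14.2 and 13.1 CPM in the sh-Scb libraries and 43.8 and 47.3 CPM in the sh-SOX4 libraries. Both sh-SOX4 libraries were far above both controls, and the log2 fold change was 1.73 (SE 0.094, edgeR adjusted p 4.79e-07). A low-level gene on the other strand covers 11.9% of DANCR exonic bases. SNHG3 (ENSG00000242125, chromosome 1, 28505980 to 28510892), the host of SNORA73A and SNORA73B, was 40.0 and 37.8 CPM in sh-Scb and 113 and 118 CPM in sh-SOX4. It rose by 1.57 on the log2 scale (SE 0.058, edgeR adjusted p 4.94e-08). RCC1, which encodes a nucleotide exchange factor of Ran, lies on the same strand and overlaps SNHG3 exons. Other genes share 11.0% of SNHG3 exonic bases. As annotated, 2 snoRNA genes lie inside RCC1 on that strand, which may be SNORA73A and SNORA73B themselves rather than further ones. RCC1 rose by 1.18 (SE 0.051), and reads in the shared bases cannot be assigned to either gene.

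SNHG15, the host of SNORA9, was 77.5 and 68.0 CPM in sh-Scb and 143 and 145 CPM in sh-SOX4, close to a doubling with a fold of 1.98. SNHG8, the host of SNORA24, was 26.3 and 21.3 CPM in sh-Scb and 47.7 and 48.2 CPM in sh-SOX4, a log2 fold change of 1.01 (SE 0.10). SNHG17, which holds SNORA71 and 4 related copies, went from 26.2 and 24.6 CPM to 48.4 and 45.7 CPM. In these 3 genes the groups did not overlap, and the edgeR adjusted p was 1.77e-06, 3.66e-05 and 1.62e-05 in that order. SNHG7, the host of SNORA17A and SNORA17B, rose by 0.63 (SE 0.080), and EPB41L4A-AS1, the host of SNORA13, by 0.39 (SE 0.096). SNHG7 shares 31.4% of its exonic bases, partly with DIPK1B on the other strand, which fell by 0.56 on the log2 scale. EPB41L4A-AS1 shares 49.6% with EPB41L4A, again on the other strand. SNHG11 rose by 0.43 with an edgeR adjusted p of 0.0108, which was 0.0516 without sh-Scb replicate 2 and 0.0584 without sh-SOX4 replicate 2. SNHG9 had a log2 fold change of 0.78 and SNHG31 of -0.33, and neither passed.

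The hosts of box C/D snoRNAs only were divided: 5 of 12 rose, 3 fell and 4 did not pass, with a median log2 fold change of 0.14. The difference from the H/ACA hosts was not tested. Beside 44.1% of all tested IDs, 66.7% of these 12 box C/D hosts were called. SNHG16 (ENSG00000163597, chromosome 17, 76557766 to 76565348), the host of SNORD1A, SNORD1B and SNORD1C, had the largest rise among them. It was 48.2 and 49.0 CPM in sh-Scb and 114 and 106 CPM in sh-SOX4, with a log2 fold change of 1.18 (SE 0.058, edgeR adjusted p 2.84e-07); 33.4% of its exonic bases are shared, most of them with a gene on the other strand. SNHG30, the host of SNORD7, rose from 5.10 and 4.25 CPM to 8.95 and 9.91 CPM, and SNHG26, the host of SNORD93, by 0.96 (SE 0.24) at 1.66 to 3.37 CPM. SNHG5, the host of SNORD50A and SNORD50B, went from 58.9 and 50.2 CPM to 78.2 and 66.4 CPM, a log2 fold change of 0.41 (SE 0.10). SNHG1 rose by only 0.18 (SE 0.042), from 200 and 199 CPM to 226 and 228 CPM; with scaling to library totals alone its log2 fold change was 0.08 and the edgeR adjusted p 0.131.

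SNHG29, the host of SNORD49A, SNORD49B and SNORD65, had the highest level of the group. It was 749 and 712 CPM in sh-Scb and 670 and 679 CPM in sh-SOX4, a log2 fold change of -0.12 (SE 0.040). Its edgeR adjusted p of 0.0412 became 0.0897 without the filter on low counts. Leaving out sh-Scb replicate 1 gave 0.183, sh-SOX4 replicate 1 gave 0.242 and sh-SOX4 replicate 2 gave 0.145. SNHG14, the long host of the SNORD115 and SNORD116 arrays in the imprinted Prader-Willi region, fell from 151 and 151 CPM to 128 and 123 CPM, a log2 fold change of -0.27 (SE 0.047, edgeR adjusted p 0.00103). On the other strand UBE3A, the ubiquitin ligase that this transcript overlaps, had a log2 fold change of -0.12 (edgeR adjusted p 0.0412).

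Among the other box C/D hosts, ZFAS1, SNHG6, SNHG32 and SNHG19 did not pass and SNHG18 fell at low counts. ZFAS1, the host of the SNORD12 genes, was 94.5 and 81.4 CPM in sh-Scb and 95.4 and 92.1 CPM in sh-SOX4, so the groups overlapped only through sh-Scb replicate 1. Without that library its log2 fold change was 0.21 and the edgeR adjusted p 0.0164. SNHG6, the host of SNORD87, was 66.1 and 55.8 CPM in sh-Scb and 57.7 and 57.1 CPM in sh-SOX4, and its log2 fold change of -0.09 became -0.21 without sh-Scb replicate 2, with an edgeR adjusted p of 0.0457. SNHG32, which GENCODE release 29 lists as protein-coding, had a log2 fold change of -0.10. SNHG19 had 0.45, which was 0.79 without sh-Scb replicate 1, with an edgeR adjusted p of 0.00914. SNHG18 was low throughout, with 57 and 50 counts in the controls against 28 and 24. Its edgeR adjusted p of 0.0497 was above 0.05 without any 1 of the 4 libraries, at 0.104 to 0.174, and was 0.200 with DESeq2.

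The hosts of both kinds and of small Cajal body RNAs were higher. GAS5 (ENSG00000234741, chromosome 1, 173863900 to 173868882), a transcript known for rising in growth-arrested cells, went from 145 and 132 CPM to 196 and 202 CPM. It rose by 0.52 on the log2 scale (SE 0.055, edgeR adjusted p 3.66e-05), with no overlap between groups. SNHG12, which holds 3 H/ACA genes and SNORD99, rose from 22.4 and 23.7 CPM to 38.0 and 35.1 CPM, and SNHG25, at 1.08 on the log2 scale (SE 0.46) with 11 to 25 counts, did not pass. All 3 tested hosts of a small Cajal body RNA rose, beside 23.2% of all tested IDs called higher. SNHG20, the host of SCARNA16, went from 9.39 and 10.8 CPM to 19.8 and 17.4 CPM, and SNHG10, the host of SCARNA13, from 4.63 and 4.22 CPM to 8.26 and 7.29 CPM. SNHG21, the host of SCARNA15, rose by 0.99 (SE 0.24), although 72.9% of its exonic bases are shared, and without sh-SOX4 replicate 2 its edgeR adjusted p was 0.0558.

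The genes without a snoRNA gene went both ways: 3 of 11 tested rose, 5 fell and 3 did not pass, with a median log2 fold change of -0.02. Of these 11, 72.7% were called, beside 44.1% of all tested IDs, of which 23.2% were higher and 20.9% lower. MALAT1 (ENSG00000251562, chromosome 11, 65497688 to 65506516), an abundant RNA of nuclear speckles, was 255 and 278 CPM in sh-Scb and 154 and 145 CPM in sh-SOX4. It fell by 0.83 on the log2 scale (SE 0.055, edgeR adjusted p 1.74e-06). OIP5-AS1 (ENSG00000247556, chromosome 15, 41283990 to 41309737), a cytoplasmic transcript known to bind the RNA-binding protein HuR, was 397 and 373 CPM in sh-Scb and 269 and 254 CPM in sh-SOX4. It fell by 0.56 (SE 0.048, edgeR adjusted p 9.43e-06), and both genes showed a clear gap between the groups. Its neighbour OIP5 on the other strand stood at 0.28 on the log2 scale and did not pass.

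MIAT, a nuclear long noncoding RNA, fell from 49.3 and 47.2 CPM to 38.1 and 37.9 CPM, a log2 fold change of -0.35 (SE 0.072, edgeR adjusted p 0.00304). NEAT1, the scaffold of paraspeckles and a neighbour of MALAT1 on chromosome 11, was 55.2 and 58.0 CPM in sh-Scb and 50.4 and 41.8 CPM in sh-SOX4. The sh-SOX4 libraries differed from each other more than the controls did; the log2 fold change was -0.29, with an edgeR adjusted p of 0.0250, or 0.161 when sh-SOX4 replicate 2 was left out. NORAD was 248 and 249 CPM in sh-Scb and 268 and 257 CPM in sh-SOX4, with a log2 fold change of 0.08 (SE 0.043). TUG1, which associates with chromatin regulators, was 215 and 216 CPM in sh-Scb and 214 and 211 CPM in sh-SOX4, with a log2 fold change of -0.02 (SE 0.042). Neither passed, and both gaps between groups were small beside those of MALAT1 and OIP5-AS1. With scaling to library totals alone TUG1 had -0.12 with an edgeR adjusted p of 0.0439, and NORAD turned to -0.02. SNHG28 fell from 77 and 61 counts to 27 and 33, but all of its annotated exonic bases also lie in other genes. Its edgeR adjusted p of 0.0198 was 0.0887 with DESeq2, and leaving out sh-Scb replicate 1 gave 0.0582 and sh-SOX4 replicate 1 gave 0.0986.

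MIR17HG, CYTOR and JPX rose. MIR17HG was 4.18 and 6.54 CPM in sh-Scb and 10.6 and 9.61 CPM in sh-SOX4, a log2 fold change of 0.92 (SE 0.21, edgeR adjusted p 0.00594). The controls of this gene lay further apart than its sh-SOX4 libraries. The counts are of the host transcript, and mature microRNAs, printed above, were not measured. CYTOR, a cytoplasmic RNA with a near-identical paralog in MIR4435-2HG, rose by 0.88 (SE 0.18), from 6.56 and 4.81 CPM to 10.6 and 10.4 CPM. MIR4435-2HG rose by 0.64 (SE 0.11), and reads may be divided between the pair. JPX and FTX, transcripts of the X inactivation centre, overlap each other on opposite strands, with 83.6% of JPX and 44.3% of FTX exonic bases shared. JPX went from 10.1 and 8.67 CPM to 14.2 and 13.3 CPM and passed with an edgeR adjusted p of 0.00716, while FTX, at 0.74 on the log2 scale (SE 0.34), did not pass. SNHG22, with 0, 11, 6 and 6 counts, and SNHG27, with 0 counts in all libraries, were not tested; a count of 0 allows up to 3 counts, or 0.0794 to 0.101 CPM.

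**Figure D2:**
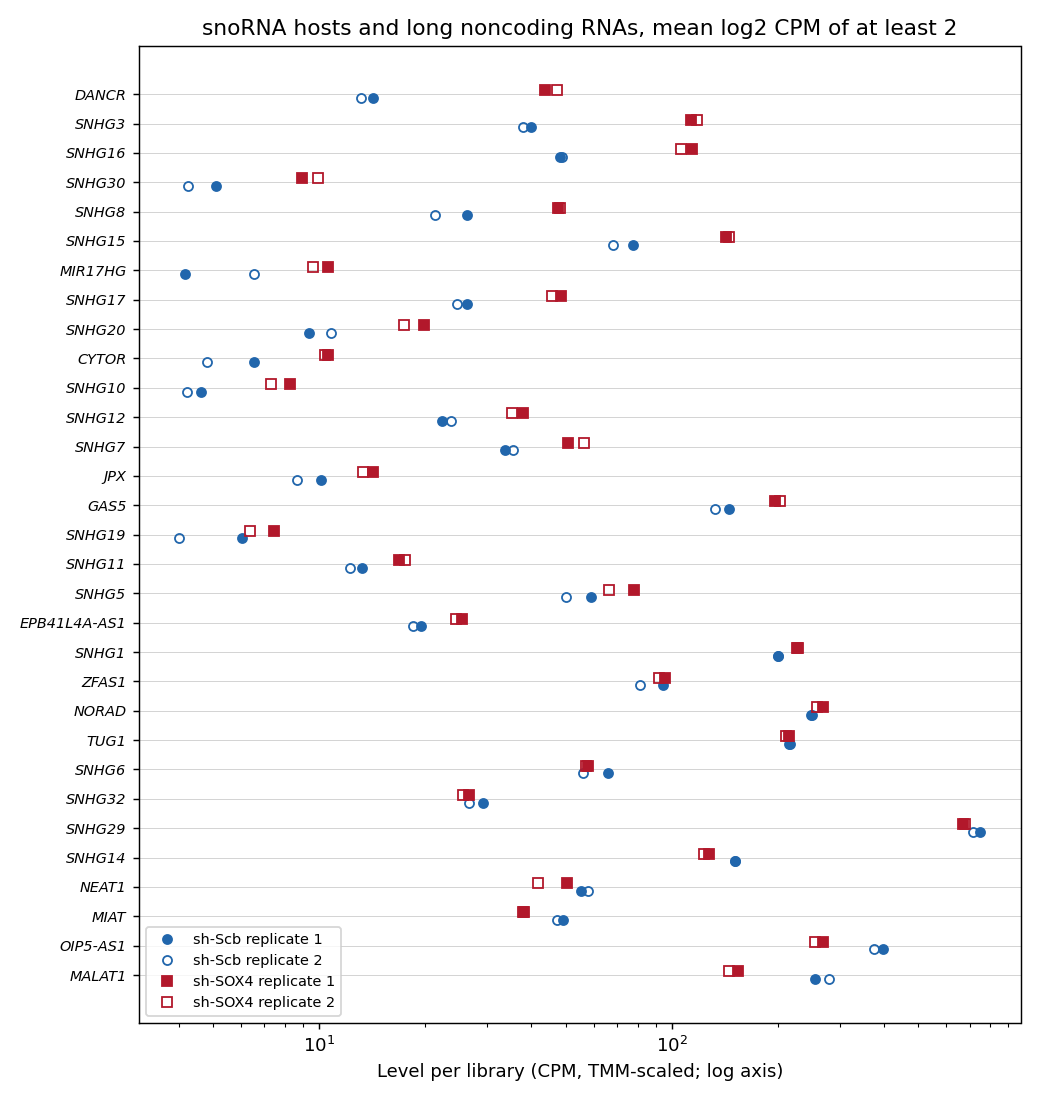
Level of each noncoding gene with a mean log2 CPM of at least 2 in every library (CPM, log axis; circles sh-Scb, squares sh-SOX4, open symbols replicate 2), ordered by change. The 2 squares of DANCR, at 43.8 and 47.3, lie well to the right of its circles at 14.2 and 13.1, and those of MALAT1, at 154 and 145, to the left of its circles at 255 and 278.

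Levels were compared between genes per kilobase of annotated exon, as CPM per kb averaged over the 4 libraries. SNHG29 was highest with 187 CPM per kb, followed by SNHG1 with 56.8, NORAD with 47.9, SNHG6 with 47.5 and GAS5 with 46.6. OIP5-AS1, with 25.5 CPM per kb, and MALAT1, with 23.6, were at ranks 9 and 10 of the 39 tested genes. All 41 genes together took 0.304% to 0.319% of the counts of a library. The SNHG genes took 0.163% and 0.155% of the sh-Scb libraries, against 0.175% and 0.174% of the sh-SOX4 libraries, so their share was higher in both sh-SOX4 libraries.

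The snoRNA genes themselves were covered by few reads. Of 137 annotated snoRNA genes inside the hosts, 135 have a row in the table, 81 had at least 1 count and 9 passed the filter. Of the 81, 28 held exactly 1 count in every library, and 25 of these overlap a host exon; 538 gene IDs of the whole table show the same constant value. How it arose was not tested, and these 28 are not read as signal. All 9 tested rows had a positive log2 fold change, as did their hosts, and 3 passed the test. SNORA71A, SNORD60 and SNORD104 had fewer than 10 counts in each sh-Scb library and passed the filter only through the sh-SOX4 libraries. SNORA26 had 10 counts in each sh-Scb library. Because the filter scales its cutoff to library size, sh-Scb replicate 1 fell below it, and SNORA26 also needed the sh-SOX4 libraries to pass. The positive sign of these rows, SNORA26 included, was favoured by that filter, so the shared sign of the 9 is not read as a result. SNORA26 went from 10 and 10 counts to 34 and 39, a log2 fold change of 1.99 (SE 0.45, edgeR adjusted p 0.00484) beside 1.73 for its host DANCR. SNORA73B went from 17 and 25 counts to 62 and 44, a log2 fold change of 1.44 (SE 0.40, edgeR adjusted p 0.0151). Its host SNHG3 had 1.57, and RCC1, which overlaps SNHG3, had 1.18. SNORA71A went from 3 and 5 counts to 14 and 18, a log2 fold change of 2.10 (SE 0.66, edgeR adjusted p 0.0271) beside 0.89 for SNHG17. These 3 snoRNAs, all H/ACA, are among those printed above, and none overlaps an annotated exon of its host.

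The other 6 tested rows did not pass: SNORD30 of SNHG1, SCARNA13 of SNHG10, SNORA71B of SNHG17, SNORD60 of SNHG19, SNORD104 of SNHG25 and SNORD12B of ZFAS1, with log2 fold changes from 0.40 to 1.35. SNORA71A did not pass without any 1 of the 4 libraries, with edgeR adjusted p from 0.0584 to 0.196. SNORA73B did not pass without sh-Scb replicate 1, at 0.0784, nor without sh-SOX4 replicate 1, at 0.0692. Rows inside the hosts summed to 242 and 188 counts in the controls against 335 and 337, or 214 and 160 against 307 and 309 without the 28 constant rows. Whether these reads come from mature snoRNA or from host introns cannot be told apart in counts per gene. Among a few other short noncoding RNAs that were read, TERC and RPPH1 had 0 to 2 counts per library, RN7SL1 had 9 to 28 and RN7SL2 had 20 to 32. Among all genes tested, 43 were snoRNA genes, of which 6 were higher and 0 lower by edgeR, with a median log2 fold change of 0.40. This is 14.0% called, beside 44.1% of all tested IDs.

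**Figure D3:**
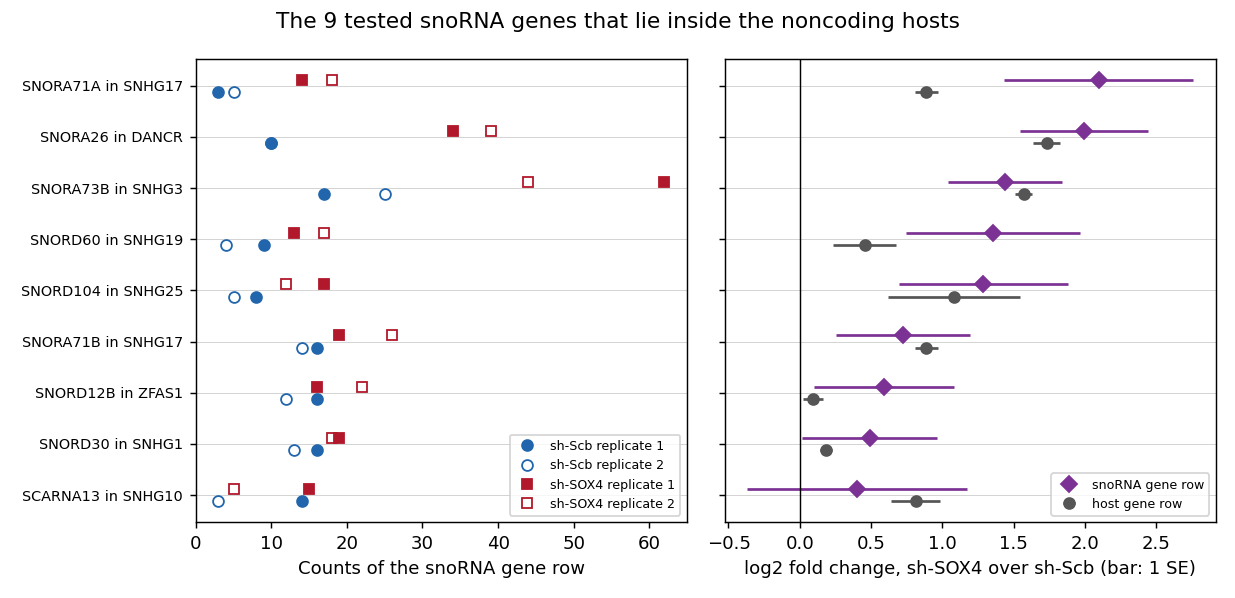
Left, counts of the 9 tested snoRNA genes that lie inside noncoding hosts, by library (circles sh-Scb, squares sh-SOX4); right, log2 fold change of each snoRNA gene (diamonds) and of its host (circles), with bars of 1 SE. All 9 diamonds lie above 0, with wide bars because no row had more than 62 counts in a library. SNORA26, SNORA71A, SNORD60 and SNORD104 would not have passed the filter on low counts without the sh-SOX4 libraries.

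Genes for the proteins that bind snoRNAs were higher as well. All 8 core proteins of the snoRNA particles rose, with a median log2 fold change of 0.83. NOP56, a box C/D core protein whose own gene also hosts snoRNAs, rose by 1.14 (SE 0.043), DKC1, the pseudouridine synthase dyskerin, by 1.01 (SE 0.052), and NOP58 by 0.94 (SE 0.051). Of 15 assembly and transport factors, 12 rose and 0 fell, with a median of 0.61. NOLC1, a nucleolar chaperone of snoRNA particles, had a log2 fold change of 1.40 (SE 0.041), TCOF1 of 0.86 (SE 0.049) and RUVBL1, an AAA+ ATPase of the R2TP assembly complex, of 1.02 (SE 0.059). XPO1, PIH1D1 and ZNHIT3 did not pass, with log2 fold changes of 0.10, -0.11 and 0.01. Of all tested IDs, 44.1% were called.

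Protein-coding genes that hold snoRNA genes on the same strand were read next. Of 182 such genes in GENCODE release 29, 166 were tested, 82 rose and 25 fell, with a median log2 fold change of 0.17. This is 64.5% called, beside 44.1% of all tested IDs. RCC1 and SEC14L1, which overlap SNHG3 and SNHG20 on the same strand, are among the 166. Hosts that encode ribosomal proteins changed little: 9 of 30 rose and 2 fell (36.7% called), with a median of 0.09. RPL23 had a log2 fold change of 0.88 (SE 0.055) and RPL12 of 0.37 (SE 0.043). The 2 that fell were RPL10, by 0.13, and RPL3, by 0.11; the RPL3 edgeR adjusted p was over 0.05 when sh-Scb replicate 1 (0.162), sh-SOX4 replicate 1 (0.353) or sh-SOX4 replicate 2 (0.0929) was left out, and that of RPL10 without sh-Scb replicate 1 (0.130) or sh-SOX4 replicate 1 (0.406). Of the other 136 tested hosts, 73 rose and 23 fell (70.6% called). The chaperone gene HSPA8, which has pseudogene copies that could share reads, rose by 1.95 (SE 0.039), and WDR43, a factor of small ribosomal subunit assembly, by 1.40 (SE 0.053).

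Because several noncoding hosts are targets of nonsense-mediated decay, its factors were read as well. Of 14, 10 rose and 2 fell (85.7% called, beside 44.1% of all tested IDs), with a median of 0.28. RBM8A, an exon junction core protein, rose by 0.55 (SE 0.052), the helicase UPF1 by 0.45 (SE 0.045) and SMG5 by 0.36 (SE 0.050), while the endonuclease SMG6 fell by 0.44 (SE 0.077) and UPF3A fell by 0.27 (SE 0.064). A list of 17 mRNAs with a 5′ TOP tract outside the ribosome includes RACK1, which is counted above as a ribosomal protein host. Of the 17, 7 rose and 2 fell (52.9% called, beside 44.1% of all tested IDs), with a median of 0.00. NPM1 rose by 0.98 (SE 0.047), IPO5 by 0.32 (SE 0.043) and RACK1 by 0.19 (SE 0.037). In the other direction, NAP1L1 fell by 0.21 and TPT1 fell by 0.14. With scaling to library totals alone, 2 rose and 5 fell, RACK1 was not called (0.09, edgeR adjusted p 0.0768), and without sh-SOX4 replicate 2, 3 rose and 1 fell. TPT1 was not called without sh-SOX4 replicate 1 (0.130) or 2 (0.0828), nor NAP1L1 without sh-SOX4 replicate 2 (0.0504), all as edgeR adjusted p.

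Proteins of the nuclear bodies in which NEAT1 and MALAT1 reside were read beside them. Of 15 paraspeckle and speckle proteins, 8 rose and 2 fell (66.7% called, beside 44.1% of all tested IDs), with a median of 0.14. The RNA-binding protein HNRNPK rose by 0.53 (SE 0.041), the splicing factor SRSF1 by 0.56 (SE 0.045) and SON, a speckle scaffold, by 0.43 (SE 0.039). With scaling to library totals alone 5 of the list fell. SRRM2, another speckle scaffold, fell by 0.24 (SE 0.039) and SRRM1 fell by 0.13; the SRRM1 edgeR adjusted p of 0.0384 was 0.132 when sh-Scb replicate 2 was left out, 0.232 when sh-SOX4 replicate 1 was and 0.105 when sh-SOX4 replicate 2 was. NONO and SFPQ did not pass, with log2 fold changes of 0.03 and -0.04.

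Noncoding transcripts outside the group were called in 25% (microRNA hosts) and 40% (other noncoding RNAs) of those tested, beside 44.1% of all tested IDs. Of 12 tested microRNA host transcripts outside the group, MIR4435-2HG rose and MIR29B2CHG and MIR210HG fell. MIR29B2CHG, the host of miR-29b-2 and miR-29c, went from a mean of 39.6 to 16.5 CPM, and MIR210HG, the host of the hypoxia-linked miR-210, had a log2 fold change of -3.08 (SE 0.20). Without sh-Scb replicate 2, 4 of these transcripts rose. Of 15 further noncoding RNAs, 1 rose and 5 fell, with a median of -0.44: HCG18 rose by 0.77 (SE 0.19), and THAP9-AS1 fell by 0.65 (SE 0.062), KCNQ1OT1 fell by 1.02 (SE 0.11), CCDC18-AS1 fell by 0.98 (SE 0.15), CRNDE fell by 0.51 (SE 0.081) and TP53TG1 fell by 0.56 (SE 0.17). The difference between these lists and the hosts was not tested.

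**Figure D4:**
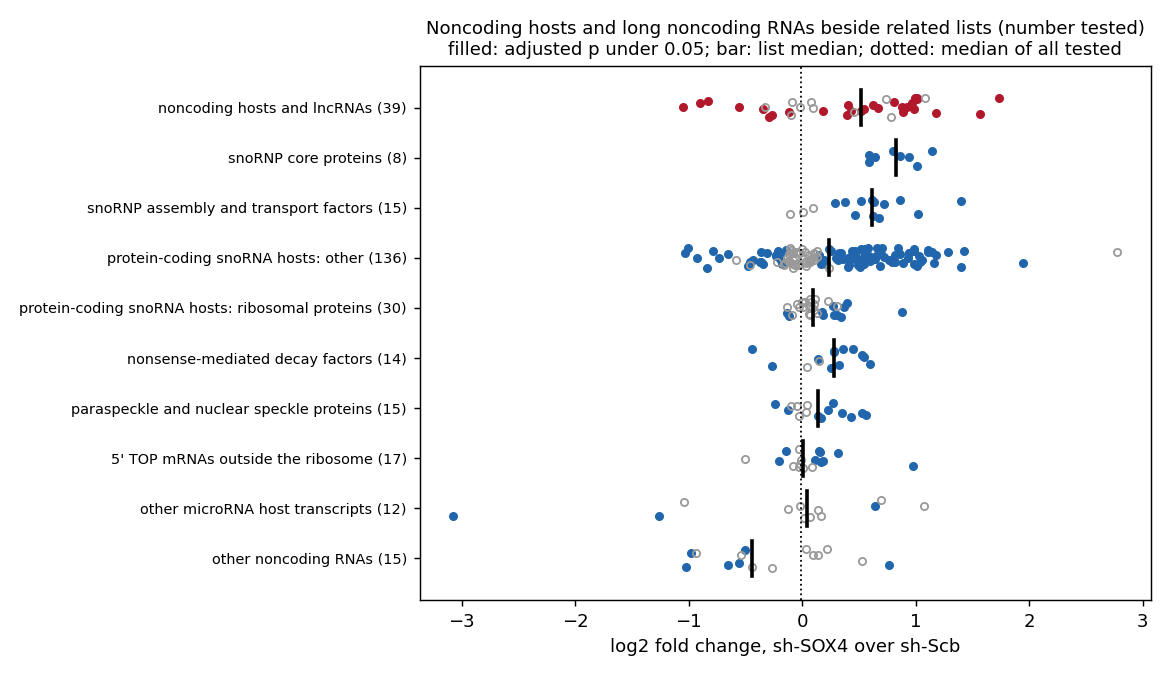
Log2 fold change of each tested gene (sh-SOX4 over sh-Scb, horizontal axis) in the noncoding group (red) and in related lists (blue; open grey circles did not pass an adjusted p of 0.05); black bars are list medians and the dotted line is the median of all tested IDs. The medians of the snoRNA particle core proteins (0.83) and their assembly factors (0.61) lie to the right of the dotted line, and that of the other noncoding RNAs (-0.44) to its left.

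Promoter sequences from RefSeq (GRCh38.p14), 250 bases before to 50 after the annotated start, were matched by symbol for 36 of the 41 genes. The E-box CACGTG, which reads the same on both strands, was in 5 of the 36 (13.9%) and in 7.26% of all 35116 promoters. Among those of genes that rose it was in 2 of 20, SNHG7 and SNHG30. The shorter ACGTG, on either strand and overlapping the E-box, was in 22.2% of the 36 and in 21.4% of all. A 5′ TOP-like start, a C at the annotated start followed by 4 pyrimidines, was found in SNHG5, SNHG12, SNHG18, SNHG19, SNHG32 and ZFAS1, 16.7% of the 36 beside 4.07% of all promoters. Of these 6, SNHG5 and SNHG12 rose, SNHG18 fell and the others did not pass. Such matches depend on the exact annotated start and are a description only.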

How the data were processed

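The 4 RNA-seq libraries are described by gene counts as the authors deposited them, whole numbers with no normalization. HISAT2 2.2.0, StringTie and the build hg38 are listed in the submitters' processing notes. Their roles, the annotation release, filters and use of strand were not stated, so reads of overlapping genes on either strand cannot be told apart. The control columns are named NC and were taken as the scrambled-hairpin libraries. Per the labels' protocols, TRIzol-extracted total RNA entered a TruSeq preparation.

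Symbols came from a gene name table, and positions, exons and hosted snoRNA genes from GENCODE release 29 on GRCh38, which contains all 41 genes; RefSeq added snoRNA positions without strand. IDs passing filterByExpr (minimum count 10, minimum total 15) were TMM-scaled and tested with the robust quasi-likelihood fit of edgeR 4.0.16 in R 4.3.3. The SE is the log2 fold change divided by the square root of F. DESeq2 1.42.0, limma-voom (limma 3.58.1) and other settings were alternatives. The genes and lists were chosen with earlier results of these data known. Per-library values go to genes averaging at least 2 in log2 CPM that lie outside SNHG or are among the 12 largest rises or falls; a few others were added after their values were seen. Each related list gives its 3 smallest adjusted p-values and, in full, any direction with 3 or fewer genes; a few genes of these lists are not reported here. Replicate libraries differed by more than sampling noise (median chi-square per gene 1.71 and 1.60, beside 0.455). Floors of 3 counts cover counting error only.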

Additional observations from a re-analysis of the deposited data

How the results depend on the processing

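The number of noncoding hosts and long noncoding RNAs that rose was 21 and lay between 16 and 23 in the alternatives. The number that fell was 8, lay between 6 and 9 under the other fits, filters and scalings, and was 5 to 8 with 1 library left out. Their median log2 fold change of 0.52 was 0.421 with scaling to library totals and 0.342 for IDs with at least 10 CPM in 2 libraries, and 0.437 to 0.592 with 1 library left out. Scaling to library totals moved the median of all tested IDs to -0.109. It turned ZFAS1 to -0.007 and NORAD to -0.020, and it gave 1 assembly factor, 5 speckle proteins, 5 TOP mRNAs, 2 T cell markers and 40 protein-coding hosts that fell, with 2 TOP mRNAs that rose. With at least 10 CPM in 2 libraries, 1 assembly factor, 4 speckle proteins and 2 T cell markers fell, and 4 TOP mRNAs and 0 other noncoding RNAs rose. Without a filter 1 speckle protein fell. With 1 library left out, 1 to 3 speckle proteins, 1 to 2 TOP mRNAs and 1 to 2 T cell markers fell, while 3 to 7 TOP mRNAs, 1 to 4 microRNA hosts and 0 to 1 markers of other cells rose; ZFAS1 ranged from -0.015 to 0.207 and SNHG6 from -0.208 to 0.043. The cause was not tested. Replicates with the same number did not deviate together (correlation -0.0103 across tested IDs). The fit with the replicate number as a block called 8378 IDs in place of 8775 and 1 speckle protein lower. In that fit the adjusted p was 0.0717 for SNHG29, 0.0739 for SNHG18, 0.0619 for SRRM1, 0.079 for RPL3 and 0.0828 for RPL10. Of the 137 snoRNA genes inside the hosts, 9 had enough counts to be tested.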
